A study of Rattus norvegicus with 12 samples.

Results

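The miR-181 family comprised 4 mature miRNAs of the rat, rno-miR-181a-5p, rno-miR-181b-5p, rno-miR-181c-5p and rno-miR-181d-5p, which are written below without the species prefix. These were taken by name from the 758 rat miRNAs of an Agilent array, by a rule that holds no measured value, and all 4 were present on it. The array was hybridized with RNA of the heart, from left ventricular tissue near the infarction area, in 12 samples of male Wistar rats whose age is not given in the sources used here. The Sham group (n = 4) was operated on without ligature and received physiological saline. The MI group (n = 4), which the sample labels name as chronic heart failure, had the left anterior descending coronary artery ligated and also received saline. The YQFM group (n = 4) had the same ligation and received Yiqifumai Injection, a preparation of botanical drugs, by intraperitoneal injection at 5 mg/kg/d for 28 days. The question put to the array was which miRNAs differed after infarction and which differed with YQFM. The labels number 4 replicates per group without stating that each came from a separate rat, so that p-values measure the spread between these samples.

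MiRNAs pair with messenger RNAs mainly through the seed, a short stretch near the 5′ end, and lower the stability or translation of their targets. The miR-181 family is best known from lymphocytes, where miR-181a tunes the response of the T cell receptor, and from inflammation of the vessel wall, where miR-181b restrains NF-κB signaling. In heart muscle, miR-181c enters mitochondria and acts on the transcript of a mitochondrially encoded subunit of cytochrome c oxidase.

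The mature sequences are shown because the members are so alike that the array has to separate them by a few bases. The capitals mark the seed, bases 2 to 8 from the 5′ end, and the sequences were taken from RefSeq on the GRCr8 assembly.
miR-181a-5p: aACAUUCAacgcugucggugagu
miR-181b-5p: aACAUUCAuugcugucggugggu
miR-181c-5p: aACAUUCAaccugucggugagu
miR-181d-5p: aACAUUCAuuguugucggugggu
All 4 members carried the same seed. RefSeq held a mature sequence for 685 of the 758 array miRNAs, and among these 0 miRNAs outside the family had that seed. The members fell into close pairs, since miR-181a-5p and miR-181c-5p differed by an edit distance of 1 and so did miR-181b-5p and miR-181d-5p, whereas the distance across these pairs was 3 to 5. The edit distance counts substituted, inserted and missing bases. MiR-181c-5p has 22 bases and the other members have 23.

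Each member was read by 2 probes of different length, with 8 spots each. The probes are complementary to the miRNA from its 3′ end onward. Those of miR-181a-5p and miR-181b-5p cover 0 seed bases, those of miR-181d-5p cover 1 or 2, and those of miR-181c-5p cover 4 or 5. The longer probe of each member and the shorter probe of miR-181b-5p are shown in 5′ to 3′ order, and the capitals mark the bases that do not pair with the most similar other member, with both miRNAs aligned at their 3′ ends and no gap.
miR-181a-5p, 15 bases, against miR-181c-5p: actcaccgacagCGt
miR-181b-5p, 14 bases, against miR-181d-5p: acccaccgacaGca
miR-181b-5p, 13 bases, against miR-181a-5p: acCcaccgacagc
miR-181c-5p, 19 bases, against miR-181a-5p: actcaccgacagGTtGAaT
miR-181d-5p, 17 bases, against miR-181b-5p: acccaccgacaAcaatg
Aligned in this way, the probes of miR-181c-5p had 4 or 5 mismatches to their nearest relative, those of miR-181a-5p had 2, and those of miR-181b-5p and miR-181d-5p had 1. The counts for miR-181c-5p and miR-181a-5p depend on the missing gap, since with a gap these miRNAs are 1 edit apart. The 13-base probe of miR-181b-5p had 1 mismatch to miR-181a-5p and also 1 to miR-181d-5p. How much of a member's signal came from another member was not tested.

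The members lay in 3 clusters of the genome. The array annotation, on the rat build rn4, placed the longer probe of miR-181a-5p at chr3:18650950-18650964 and again at chr13:51132539-51132553. That of miR-181b-5p was placed at chr3:18652030-18652043 and chr13:51132722-51132735, so that the array signals of miR-181a-5p and miR-181b-5p each joined 2 loci. The probe of miR-181c-5p lay at chr19:25667411-25667428 and that of miR-181d-5p at chr19:25667584-25667599. The starts of neighboring members were 1080 bases apart on chromosome 3, 183 on chromosome 13 and 173 on chromosome 19. In the GRCr8 annotation, Mir181a2 and Mir181b2 lie within Nr6a1, which encodes an orphan nuclear receptor, and Mir181a-1 and Mir181b1 lie within a long noncoding RNA gene. Mir181c and Mir181d lie in no gene, between Zswim4 and Nanos3.

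The arrays were alike in broad measures but were not placed evenly. Between 24.4% and 31.6% of the 12128 spots were well above background per array, and between 211 and 268 miRNAs were detected. Detection of a miRNA required that more than 50% of a probe's spots exceed background clearly, for any of its probes. The arrays lay on 3 slides: MI replicates 1 to 3 on slide 1, MI replicate 4 with YQFM replicate 1 on slide 2, and all Sham arrays with YQFM replicates 2 to 4 on slide 3. MI and Sham arrays thus shared no slide. The labels contradict themselves for MI replicate 4, whose source name reads Sham, and for Sham replicate 4, whose source name reads YQFM, and results were also computed without these arrays. As a check of the tissue, the cardiomyocyte miRNAs miR-1-3p and miR-133a-3p were detected on all 12 arrays, miR-208a-3p on 1 and miR-208b-3p on 0.

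All values below are log2 of the spot intensity, averaged over the probes and scaled to the 75th percentile of each array. Levels of different miRNAs are not comparable on this scale, since probes differ in brightness, so that groups were compared in the same quantity from array to array, whether a miRNA, a difference of members or a sum over a list. MiR-181a-5p, miR-181b-5p and miR-181d-5p were detected on all 12 arrays. MiR-181c-5p was detected on 10 arrays, namely 4 of 4 in the Sham group, 2 of 4 in the MI group and 4 of 4 in the YQFM group. This count depends on the detection rule given above. On MI replicates 2 and 3, which missed it, the authors' processed values were 5.42 and 5.30, not the 0.1 they give where undetected. Both lay below the unscaled mean of its probes on those arrays, 6.80 and 7.25. On every other array the authors' value of miR-181c-5p lay above that mean, and the cause of this was not tested. The opposite strands of the same hairpins, 6 miRNAs of the 3p arm, were each detected on 0 of 12 arrays and lay at the floor of 2.38, so that no difference in them was detectable.

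In miR-181a-5p, the log2 signals were 6.71, 6.19, 6.41 and 6.57 in Sham replicates 1 to 4. They were 6.44, 6.23, 5.99 and 6.52 in the MI group, and 6.70, 6.36, 6.41 and 6.26 in the YQFM group. The groups overlapped throughout, and the ranges were of similar width. The order of the group means was Sham (6.47 ± 0.22, SD, n = 4), YQFM (6.43 ± 0.19, SD, n = 4) and MI (6.30 ± 0.24, SD, n = 4), and no neighbors in that order differed by more than these SDs.

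In miR-181b-5p, the signals were 5.82, 5.48, 5.80 and 5.72 in the Sham group. They were 5.55, 5.65, 5.85 and 5.73 in the MI group, and 5.88, 5.56, 5.60 and 5.48 in the YQFM group. The lowest Sham array lay below all MI arrays and the highest array belonged to the YQFM group, so that no group stood apart. In order, the means were 5.71 ± 0.16 (Sham), 5.70 ± 0.13 (MI) and 5.63 ± 0.17 (YQFM), with SDs over 4 arrays, and neighbors again differed by less than the SDs.

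In miR-181c-5p, the signals were 3.96, 3.54, 3.67 and 3.77 in the Sham group. They were 3.43, 2.92, 3.20 and 3.65 in the MI group, where the arrays at 2.92 and 3.20 were those on which it was not detected, and 3.56, 3.44, 3.68 and 3.65 in the YQFM group. The 3 lowest arrays of all were MI replicates 1 to 3 of slide 1, while MI replicate 4 lay inside the Sham and YQFM ranges. In order, the means were 3.74 ± 0.18 (Sham), 3.58 ± 0.11 (YQFM) and 3.30 ± 0.31 (MI), with SDs over 4 arrays. YQFM lay within 1 SD of its neighbor on either side, taking the wider SD.

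In miR-181d-5p, the signals were 5.70, 5.50, 5.82 and 5.65 in the Sham group. They were 5.27, 5.38, 5.70 and 5.56 in the MI group, and 5.49, 5.47, 5.48 and 5.43 in the YQFM group. All 4 YQFM arrays lay below all 4 Sham arrays, by a narrow margin, and inside the MI range. In order, the means were 5.67 ± 0.13 (Sham), 5.48 ± 0.19 (MI) and 5.47 ± 0.03 (YQFM), with SDs over 4 arrays. Sham and MI differed by about the SD of the MI group, MI and YQFM did not differ beyond it, and the YQFM arrays spanned only 0.063 against 0.43 in the MI group.

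**Figure D1:**
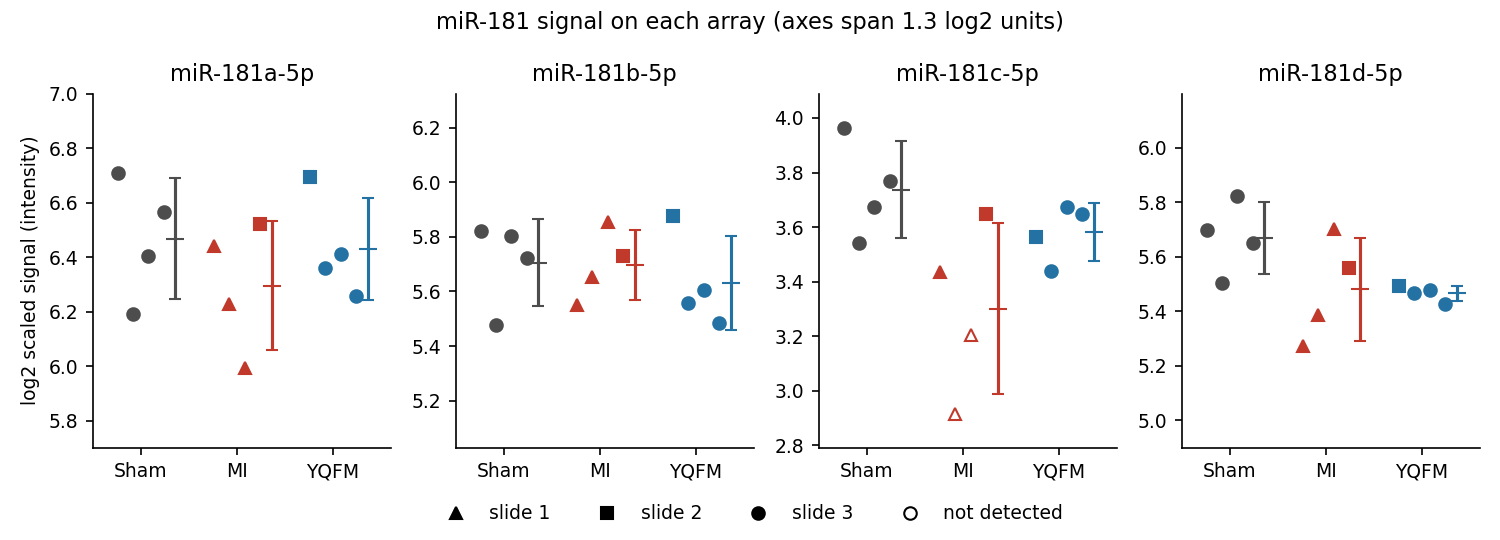
The log2 scaled signal intensity of each miR-181 member (vertical axis, spanning the same number of log2 units in every panel) is plotted for each array of the Sham, MI and YQFM groups. Symbols give the slide, open symbols mark arrays on which the miRNA was not detected, and the bars give the mean ± SD of 4 arrays. The MI arrays of slide 1 hold the 3 lowest values of miR-181c-5p, and the YQFM values of miR-181d-5p lie together between 5.43 and 5.49.

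The comparison of MI with Sham addressed the effect of infarction. All 4 members had lower mean signals in the MI group, and no member passed the test. The sign turned above 0 in 9 of 29 alternatives for miR-181b-5p and in 2 of 29 for miR-181a-5p, and it did so for both miRNAs with total gene signal and with the brightest probe. The median log2 ratio of all tested miRNAs also lay above 0 there, at 0.099 with total gene signal and 0.14 with the brightest probe. MiR-181c-5p, the member with known action in mitochondria of heart muscle, was 0.739-fold of Sham (95% interval 0.587 to 0.930). MiR-181d-5p, its neighbor on chromosome 19, was 0.878-fold (0.749 to 1.03). MiR-181a-5p was 0.888-fold (0.705 to 1.12) and miR-181b-5p 0.994-fold (0.834 to 1.18).

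In limma over all 263 tested miRNAs, 0 of 4 members were called at an adjusted p of 0.05, against 7.22% of all tested miRNAs (19 of 263). At an unadjusted p under 0.05 it was 1 of 4 members, against 29.3% of all, and the methods' t-test called 0 members at either threshold. The log2 ratio of miR-181c-5p was -0.44 (SE 0.151), with an adjusted p of 0.0839 in limma and an exact permutation p of 0.0571. The log2 ratios of the others were -0.17 for miR-181a-5p, -0.0083 for miR-181b-5p and -0.19 for miR-181d-5p, with adjusted p of 0.496, 0.973 and 0.260 in limma. The family median of -0.18 lay below the median of all tested miRNAs, -0.045, and log2 ratios below 0 were found in 57.4% of these. Groups without overlap were found in 0 of 4 members and in 12.2% of all. In tissue RNA, fewer cells of a type and less miRNA per cell cannot be told apart.

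The value of miR-181c-5p moved with single arrays. Without MI replicate 4 the log2 ratio was -0.55 with an adjusted p of 0.0158 in limma, and without both arrays of conflicting labels it was -0.54 with an adjusted p of 0.0381, so that it was called in both. The number of all miRNAs called was higher too, 62 and 58 of 263 in these fits against 19 over all arrays. With slide as a random block the log2 ratio was -0.31 with an adjusted p of 0.872 in limma. With slide as a fixed block it was -0.069 with an adjusted p of 0.953 in limma. Slide 2 holds no Sham array, so this estimate was reached only through the YQFM group. It combined YQFM against Sham on slide 3, -0.15, with YQFM against MI on slide 2, -0.081 with 1 array each, the latter with its sign turned. For the other MI arrays slide and group cannot be told apart. MI replicate 4 exceeded the mean of MI replicates 1 to 3 by 0.46 in miR-181c-5p, by 0.30 in miR-181a-5p, by 0.11 in miR-181d-5p and by 0.044 in miR-181b-5p. MI replicates 2 and 3, on which miR-181c-5p was not detected, also had the fewest detected miRNAs of all arrays (226 and 211) and the smallest shares of spots well above background (26.4% and 24.4%), whose part in the result was not tested.

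The comparison of YQFM with MI asked which miRNAs differed with treatment after infarction. MiR-181c-5p had the widest difference in the family, 1.22-fold of MI (95% interval 0.966 to 1.53), and was detected on all YQFM arrays. MiR-181a-5p was 1.098-fold (0.872 to 1.38). MiR-181b-5p and miR-181d-5p were 0.955-fold (0.802 to 1.14) and 0.990-fold (0.845 to 1.16). The intervals of all 4 members included 1, and the groups overlapped in every member.

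In limma, 0 of 4 members were called, and so were 0% of all 263 tested miRNAs. At an unadjusted p under 0.05 it was 0 of 4 members against 19% of all, and the methods' t-test called 0 members at either threshold. The log2 ratios were 0.13 for miR-181a-5p, -0.066 for miR-181b-5p, 0.28 for miR-181c-5p and -0.014 for miR-181d-5p. The lowest adjusted p in limma was 0.371, that of miR-181c-5p, with an exact permutation p of 0.114. The family median was 0.060, with 2 of 4 members below 0, against -0.0077 for all tested miRNAs, of which 51.3% were below 0. Groups without overlap were found in 0 of 4 members and in 6.46% of all. On slide 2, the single slide with MI and YQFM arrays, 1 array of each could be set side by side without a test. There the YQFM array exceeded the MI array by 0.17 in miR-181a-5p and by 0.15 in miR-181b-5p, and the difference was -0.081 in miR-181c-5p and -0.069 in miR-181d-5p. For miR-181b-5p and miR-181c-5p this sign was opposite to that over all arrays.

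The comparison of YQFM with Sham set treated rats against rats without infarction, and it shares its arrays with the comparisons above. All 4 members were again lower in mean signal, and so were most miRNAs. MiR-181d-5p was 0.869-fold of Sham (95% interval 0.741 to 1.02) and was the member whose groups did not overlap. MiR-181c-5p was 0.898-fold (0.713 to 1.13). MiR-181b-5p and miR-181a-5p were 0.950-fold (0.797 to 1.13) and 0.975-fold (0.775 to 1.23).

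In limma, 0 of 4 members were called, as were 0% of all tested miRNAs. At an unadjusted p under 0.05 it was 0 of 4 members against 5.7% of all, while the methods' t-test, unadjusted, called 1 member, miR-181d-5p, and called 0 after adjustment. For miR-181d-5p the log2 ratio was -0.20 (SE 0.104), with an adjusted p of 0.664 in limma. Its exact permutation p of 0.0286 is the smallest that 4 arrays against 4 can give, and became 0.343 after Benjamini-Hochberg adjustment over the 12 permutation tests of members and comparisons. Groups without overlap were found in 1 of 4 members and in 6.08% of all tested miRNAs.

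The median of all tested miRNAs was -0.11, close to the family median of -0.12, and 69.2% of them had log2 ratios below 0. The log2 ratios of miR-181a-5p, miR-181b-5p and miR-181c-5p, -0.037, -0.074 and -0.16, lay near this shift, and those of the former pair turned above 0 under all 3 other scalings, as did that of miR-181c-5p without scaling. Slide 3 held all 4 Sham and 3 YQFM arrays and allowed a comparison within a slide. Within it miR-181d-5p differed by -0.21 without overlap, with an exact permutation p of 0.0571, the smallest that 3 against 4 can give. The other members differed by -0.12 (miR-181a-5p), -0.16 (miR-181b-5p) and -0.15 (miR-181c-5p), with exact permutation p of 0.514, 0.229 and 0.343.

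**Figure D2:**
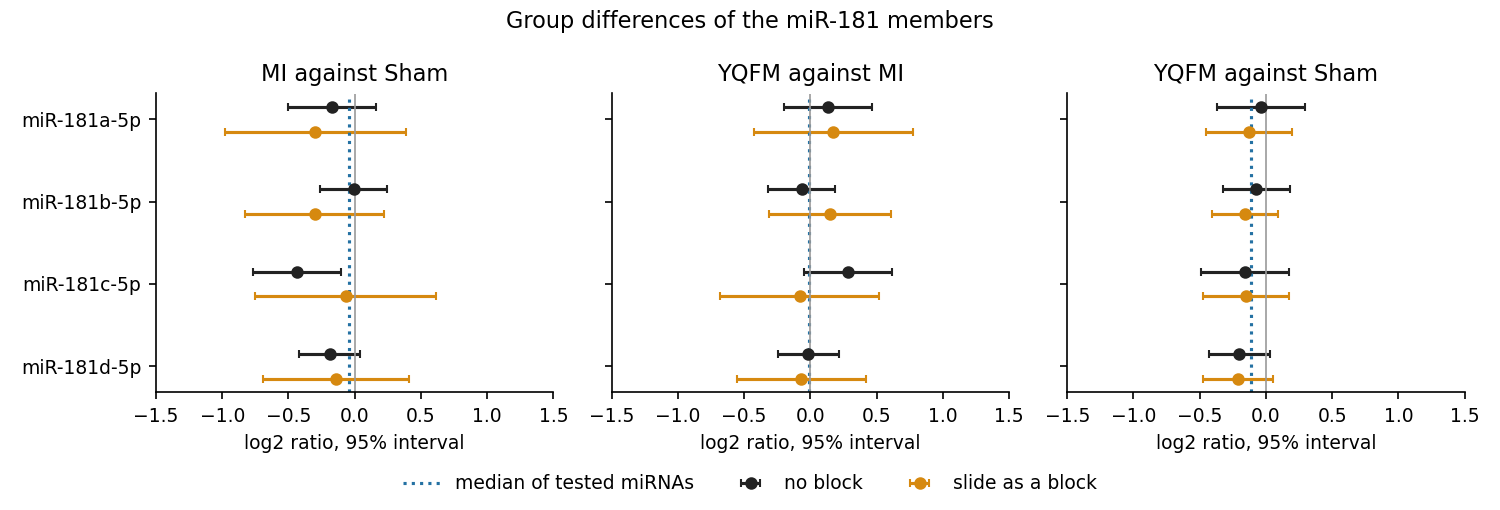
Log2 ratios of the miR-181 members with 95% intervals (horizontal axis) are given for the 3 comparisons, without a block (black) and with slide as a fixed block (orange). The dotted line is the median of the 263 tested miRNAs. Without a block, the interval of miR-181c-5p in MI against Sham, -0.77 to -0.11, is the only interval that excludes 0, and with the fixed block all intervals include 0.

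**Figure D3:**
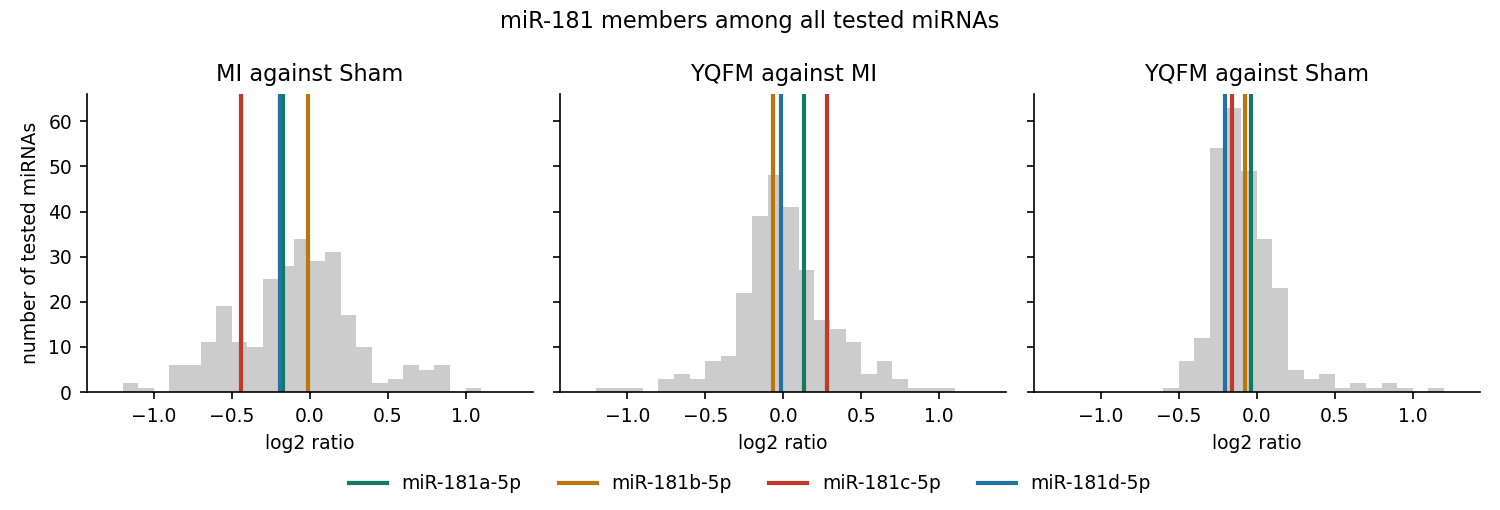
Histograms show the log2 ratios of the 263 tested miRNAs (horizontal axis, with the number of miRNAs on the vertical axis) in each comparison, and colored lines mark the 4 members. In MI against Sham the line of miR-181c-5p at -0.44 lies left of the other members, and in YQFM against Sham all 4 lines lie within the main peak, which is itself left of 0.

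The 2 probes of a member were also read separately, since probes of different length can bind relatives to different extents. The probes of miR-181a-5p and miR-181c-5p moved together over the 12 arrays, with Pearson's r of 0.972 and 0.956. Those of miR-181d-5p had an r of 0.674 and those of miR-181b-5p an r of 0.232. These correlations are descriptions, and probes of an array share its scaling.

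For miR-181b-5p, the flat mean in MI against Sham joined probes of opposite sign. The 13-base probe gave a log2 ratio of 0.22 and the 14-base probe one of -0.18, each with an exact permutation p of 0.143. In YQFM against MI the same probes gave -0.26 and 0.084. Their signs were thus opposite in both comparisons with the MI group, while in YQFM against Sham both lay below 0, at -0.040 and -0.099.

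The difference between these probes, longer minus shorter, was 0.69, 0.63, 0.61 and 0.63 in Sham replicates 1 to 4. It was 0.27, 0.091, 0.040 and 0.54 in the MI group, and 0.46, 0.61, 0.76 and 0.48 in the YQFM group. All MI arrays lay below all Sham arrays, and the 3 lowest values were those of slide 1. Probe pairs of miRNAs outside the family were not compared, so that how often such a separation occurs on these arrays is not known. The means were 0.64 ± 0.04 in Sham and 0.23 ± 0.23 in MI (SD, n = 4 each), with an exact permutation p of 0.0286, the smallest possible, and 0.343 after adjustment over the 12 such tests. For miR-181d-5p the same difference changed by -0.16 in MI against Sham, with an exact permutation p of 0.171. Its slide 1 values, -0.054, 0.16 and 0.056, lay below the lowest Sham value, 0.237. So did those of YQFM replicates 1 and 2, 0.234 and 0.023. Shorter minus longer changed by -0.13 for miR-181c-5p, and longer minus shorter by 0.043 for miR-181a-5p. Groups overlapped in all of these. The spots of the shorter miR-181b-5p probe varied by a median CV of 16.3% in MI and 6.47% in Sham. The part that slide, or binding of another member, had in these differences was not tested.

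In MI against Sham, miR-181c-5p gave -0.36 with its 19-base probe and -0.49 with its 18-base probe, of which the former was detected on 10 arrays. The latter was detected on 1 array per group and lay at the floor on MI replicate 2, so that its ratio is not a measured size. MiR-181d-5p gave -0.11 with 16 bases and -0.26 with 17 bases. MiR-181a-5p gave -0.20 with 14 bases and -0.16 with 15 bases. In YQFM against Sham the probes of miR-181d-5p gave -0.17 and -0.23, each with overlapping groups and an exact permutation p of 0.0571. Over the 24 tests of single probes the smallest adjusted p was 0.381. The spots of a probe varied by a median CV of 2.19% for the longer probe of miR-181a-5p up to 15.9% for the shorter probe of miR-181c-5p.

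**Figure D4:**
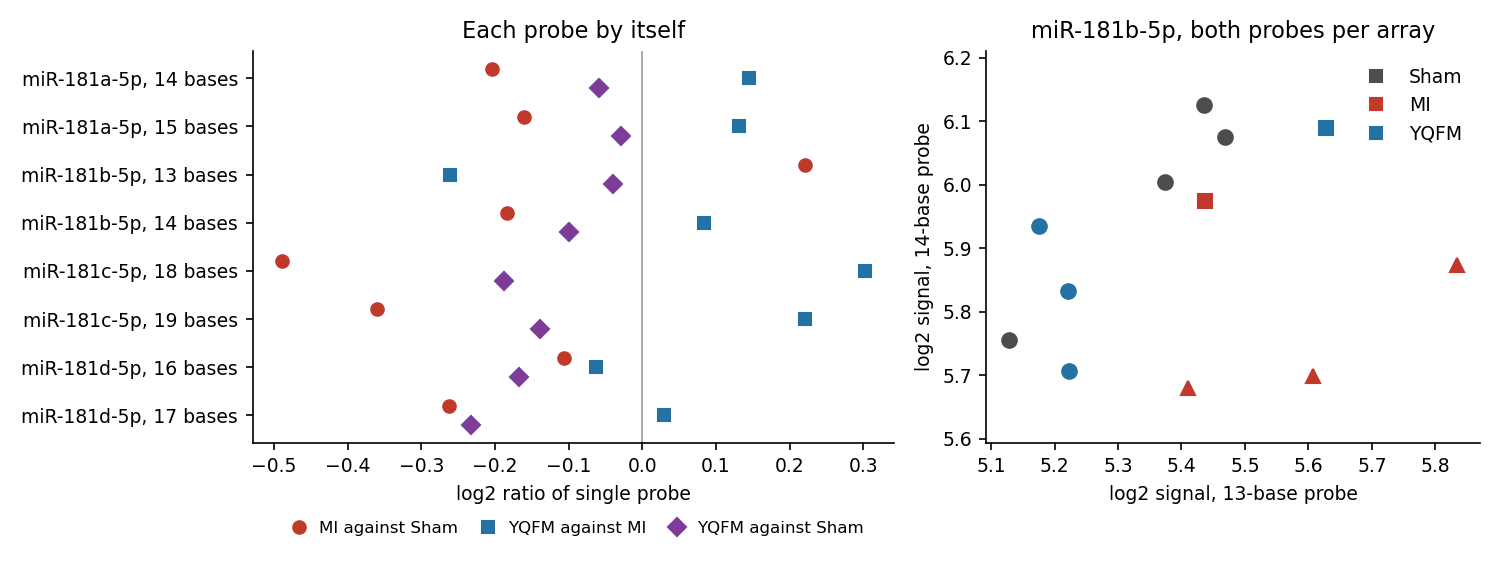
The left panel gives the log2 ratio (horizontal axis) of each probe by itself in the 3 comparisons, and the right panel plots the 14-base probe of miR-181b-5p against its 13-base probe in log2 signal for each array, with colors for groups and the same symbols for slides as in the plot of the members by array. The probes of miR-181b-5p lie on opposite sides of 0 in MI against Sham, and its MI arrays of slide 1 (triangles) have the smallest excess of the 14-base over the 13-base probe, 0.040 to 0.27.

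The correlations between members depended on which arrays were taken, and no order of the pairs held throughout. Over 12 arrays, the signals of miR-181b-5p and miR-181d-5p, which are 1 edit apart, had a Pearson's r of 0.666 (permutation p 0.0189) and a Spearman's rho of 0.629 (permutation p 0.0335). Those of miR-181a-5p and miR-181c-5p, also 1 edit apart, had an r of 0.665 (permutation p 0.0226) and a rho of 0.636 (permutation p 0.0309). After adjustment over the 6 pairs all of these missed the threshold, with an adjusted p of 0.0679 for both r and 0.101 for both rho. The permutations took the 12 arrays as exchangeable, without regard to group or slide. Among the tested miRNAs, miR-181c-5p had rank 52 by r with miR-181a-5p, and miR-181a-5p rank 60 with miR-181c-5p. MiR-181d-5p had rank 15 with miR-181b-5p, and miR-181b-5p rank 3 with miR-181d-5p. Values of this size were thus not particular to the family. The remaining 4 pairs had an r of 0.088 to 0.404, including the neighbors on chromosome 19, miR-181c-5p and miR-181d-5p, at 0.404, and the neighbors on chromosomes 3 and 13, miR-181a-5p and miR-181b-5p, at 0.356.

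Without the 2 arrays farthest from the median of its first member, each pair had another value. The r was 0.770 for miR-181a-5p with miR-181b-5p, 0.709 for miR-181b-5p with miR-181d-5p and 0.677 for miR-181c-5p with miR-181d-5p. It was 0.444 for miR-181a-5p with miR-181c-5p, so that this relation rested partly on Sham replicate 1 and MI replicate 3, and 0.243 and 0.228 for the remaining pairs. Within the 7 arrays of slide 3 all 6 pairs had an r of 0.546 to 0.906. The highest were 0.906 for miR-181b-5p with miR-181d-5p and 0.849 for miR-181a-5p with miR-181b-5p, both with an adjusted p of 0.0440 in exact permutation tests, and miR-181a-5p with miR-181c-5p followed at 0.827 with an adjusted p of 0.0579. The tests on slide 3 took its Sham and YQFM arrays as exchangeable, and ranks among all miRNAs were not computed there. Slides 1 and 2 held too few arrays for a value.

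A difference between members within an array does not depend on the scaling of that array. Among the 18 tests of such differences, 6 pairs in 3 comparisons, groups without overlap were found once, for miR-181b-5p minus miR-181d-5p, which was 0.22 ± 0.06 in MI and 0.04 ± 0.07 in Sham (SD, n = 4 each). Its exact permutation p was 0.0286, and 0.514 after adjustment over the 18 tests. Differences between other miRNAs were not computed, so that no share of all such differences can be set beside this count. The differences miR-181a-5p minus miR-181c-5p and miR-181b-5p minus miR-181c-5p were wider in MI than in Sham by 0.27 and 0.43, with exact permutation p of 0.0571 and 0.0857. Unequal change of the members was therefore not shown by these tests.

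By the highest Pearson's r over the 12 arrays, the miRNAs most like miR-181a-5p were miR-27a-3p (0.888), miR-149-5p (0.875) and miR-26a-5p (0.875). Those most like miR-181b-5p were miR-6216 (0.885), miR-667-5p (0.875) and miR-3557-3p (0.841). Those most like miR-181c-5p were miR-139-3p (0.944), miR-6317 (0.907, detected on 9 arrays) and miR-22-3p (0.893). MiR-181d-5p had no close match, and its highest values were 0.708 with miR-6216, 0.679 with miR-328a-5p and 0.666 with miR-181b-5p. A family member was thus among the nearest 3 in 1 of 4 cases, and all these arrays share the same scaling.

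The family is discussed for mitochondrial and immune regulation, and lists of other miRNAs with those roles were read in the same fit. Of 18 miRNAs with reported mitochondrial targets, 17 were on the array and 16 were tested. In MI against Sham 1 of the 16 was called, against 7.22% of all tested miRNAs, and 11 of 16 ratios were below 0, against 57.4% of all, so that the list lay near these shares. The called miRNA was miR-30d-5p, a member of the miR-30 family that is abundant in heart muscle, with a log2 ratio of -0.38 and an adjusted p of 0.0219 in limma. This call was lost with slide as a fixed or random block, normexp, total gene signal, no scaling and the authors' processed values, under each of which limma called 0 of the 263 miRNAs. The list had a median of -0.22. The next smallest p belonged to miR-30e-5p (-0.56, adjusted p 0.0520), miR-378a-5p (-0.40, adjusted p 0.0578), from the gene of the metabolic regulator PGC-1β, and miR-484 (-0.55, adjusted p 0.0618), which restrains mitochondrial fission, all by limma. MiR-30b-5p and miR-30c-5p followed at -0.48 and -0.33, with adjusted p of 0.168 and 0.192 in limma. The list medians were 0.051 in YQFM against MI and -0.20 in YQFM against Sham, with 0 called.

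Of 12 immune miRNAs on the array, 8 were tested and 0 were called in any comparison, against 7.22%, 0% and 0% of all tested miRNAs in MI against Sham, YQFM against MI and YQFM against Sham. At an unadjusted p under 0.05 in limma it was 1, 0 and 0 of the 8, against 29.3%, 19% and 5.7% of all. The median was 0.015 in MI against Sham, 0.010 in YQFM against MI and 0.083 in YQFM against Sham. MiR-146b-5p, which restrains NF-κB signaling, had a log2 ratio of 0.88 in MI against Sham (adjusted p 0.136 in limma) and was detected on 5 arrays. MiR-21-5p, known from fibrosis and inflammation, had 0.79 (adjusted p 0.194 in limma). MiR-223-3p of myeloid cells, at -0.11, and miR-125b-5p, miR-150-5p and miR-155-5p, at 0.15, -0.033 and 0.014, lay nearer to 0.

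Markers of other cell types were summed because the family is expressed in many of them. No miRNA of these lists was called in any comparison. Of all tested miRNAs, 7.22% were called in MI against Sham, 0% in YQFM against MI and 0% in YQFM against Sham. The medians of MI against Sham were -0.11 over 4 tested cardiomyocyte markers of 6, 0.62 over all 5 fibroblast markers, -0.0063 over 3 endothelial markers of 4 and -0.20 over both smooth muscle markers. They were -0.033 over 3 leukocyte markers of 5 and -0.20 over 2 erythroid markers of 4. The summed signal of the fibroblast markers lay between 850 and 1115 (Sham), 960 and 1641 (MI) and 950 and 2070 (YQFM), which overlap. The sum of the leukocyte markers lay between 275 and 317, 264 and 334, and 260 and 315 in these groups, and the leukocyte-defining miR-142-3p and miR-142-5p were detected on 0 arrays. The sum of the erythroid markers lay between 201 and 253 (Sham), 165 and 214 (MI) and 167 and 198 (YQFM). YQFM and Sham thus did not overlap, but this sum came mainly from miR-486, whose Sham mean was 7.75 against 3.24 for miR-451-5p. In YQFM against Sham miR-486 had a log2 ratio of -0.32 (adjusted p 0.452 in limma). MiR-451-5p, detected on 6 arrays, had -0.024, and miR-144-3p and miR-144-5p were detected on 0 arrays. The cardiomyocyte sums lay between 10048 and 13393, 9414 and 11786, and 9207 and 11481 in the groups in that order. Endothelial sums were 573 to 742, 717 to 952 and 586 to 728, those of smooth muscle were 502 to 611, 381 to 604 and 431 to 551, and all of these overlapped. The part of cell composition in the miR-181 values was not tested.

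**Figure D5:**
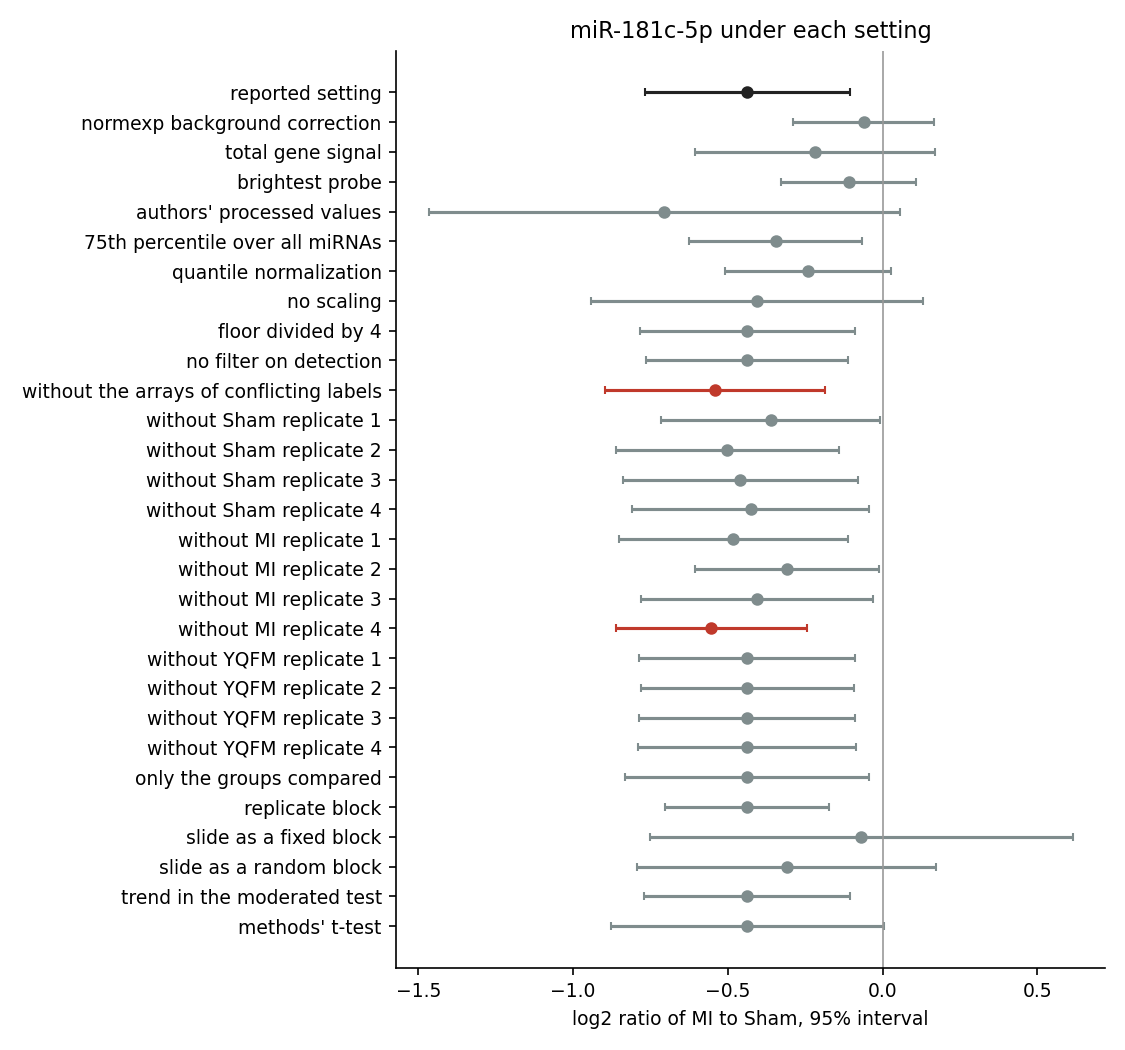
The log2 ratio of miR-181c-5p in MI against Sham with its 95% interval (horizontal axis) is shown for the reported setting (black) and for each alternative. Red marks the alternatives in which it was called at an adjusted p of 0.05, namely those without MI replicate 4 and without both arrays of conflicting labels, and all values lie below 0, from -0.70 to -0.061.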

How the data were processed

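RNA of 12 samples, 4 per group, was labeled with Cy3 and hybridized to 1 Agilent rat miRNA array each. The authors deposited, as scanner output of Feature Extraction 10.7.1.1, the intensity of each spot, detrended and background-subtracted but not scaled between arrays. They also deposited processed values as linear intensities summed over probes, 0.1 where undetected. The array annotation is on rn4. All groups were taken from the sample titles.

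Control and outlier spots were left out. Signals were averaged over spots and then probes, divided by the array's 75th percentile, taken over 201 miRNAs with detection on every array, multiplied by the mean percentile, and floored at 5.20 (2.38 in log2). The 263 miRNAs detected on at least 2 of 4 arrays of a group were tested over all 12 arrays in limma 3.58.1 (R 4.3.3), two-sided, with Benjamini-Hochberg adjustment over all of them and a threshold of 0.05. The procedure was tested on simulated data with independent noise and no slide effect. That check does not cover the placement of the groups on slides. Exact two-sided permutation tests compared single members, with 0.0286 as the smallest p for 4 against 4. The number of arrays limits the precision.

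The text names the members, their opposite arms, the 3 miRNAs of highest Pearson's r with each member, and up to 6 miRNAs of smallest p in MI against Sham from the immune list and the list with mitochondrial targets. Cell type marker lists covered cardiomyocytes, fibroblasts, endothelium, smooth muscle, leukocytes and erythroid cells. Members and lists were chosen with earlier results of these data known. Single probes, differences between members and correlations within a slide were added after seeing the data.

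Alternatives were normexp (offset 50, no floor), total gene signal, the brightest probe, the authors' processed values, other scalings, floors and detection rules, leaving out arrays, replicate and slide blocks, a trend, only the groups compared, and the methods' t-test. The paper names that t-test for differences among groups in general. Its array miRNAs were selected by fold change and by a rate of reversal with treatment, which was not applied here. Mature sequences and gene neighbors came from RefSeq (GRCr8). Python 3.11.15, pandas 2.3.3, scipy 1.17.1 and matplotlib 3.10.9 were used. RT-PCR, tissue and cell culture data of the study were not analysed here.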

Additional observations from a re-analysis of the deposited data

How the results depend on the processing

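No member was called in any comparison under the reported setting, and this held except as follows. In MI against Sham 1 member, miR-181c-5p, was called without MI replicate 4 and without both arrays of conflicting labels, and in YQFM against Sham the unadjusted methods' t-test called 1 member, miR-181d-5p. Over all alternatives, 308 of the members' log2 ratios kept their direction and their side of the threshold, 2 passed it and 39 changed sign, the causes of which were not tested. The log2 ratio of miR-181c-5p in MI against Sham ranged from -0.70 (the authors' processed values) to -0.061 (normexp), and from -0.55 to -0.31 with an array left out. The value of -0.70 includes MI replicates 2 and 3, where alone the authors' values (5.42 and 5.30) lay below the unscaled probe means (6.80 and 7.25). The log2 ratio of miR-181d-5p kept its sign throughout in MI against Sham, from -0.26 to -0.0071, and in YQFM against Sham, from -0.26 to -0.043.

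In MI against Sham, the sign turned for miR-181a-5p with total gene signal (0.0093) and the brightest probe (0.089), and for miR-181b-5p with total gene signal (0.17), the brightest probe (0.067), the percentile over all miRNAs (0.084), quantile normalization (0.11) and no scaling (0.023), and between -0.085 and 0.040 with an array left out. In YQFM against MI it turned for miR-181a-5p with the brightest probe (-0.0016), for miR-181b-5p with the authors' values (0.12), no scaling (0.059) and slide as a fixed block (0.15) or random block (0.016), and for miR-181c-5p with slide as a fixed block (-0.081). For miR-181d-5p in that comparison it turned with the authors' values (0.17), the percentile over all miRNAs (0.0093), no scaling (0.11) and without the arrays of conflicting labels (0.012), and between -0.083 and 0.060 with an array left out. In YQFM against Sham, miR-181a-5p and miR-181b-5p turned with total gene signal (0.084 and 0.046), the brightest probe (0.088 and 0.018), the authors' values (0.12 and 0.085), the percentile over all miRNAs (0.080 and 0.042), quantile normalization (0.021 and 0.047) and no scaling (0.12 and 0.082), and miR-181a-5p lay between -0.13 and 0.044 with an array left out. MiR-181c-5p turned there with the authors' values (0.0036) and no scaling (0.00059).

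The median of all tested miRNAs in YQFM against Sham was -0.11 as reported, 0.00068 with the percentile over all miRNAs and 0.034 without scaling. The number of miRNAs called in MI against Sham was 19 as reported and lay between 0 and 62 over the alternatives, with 62 without MI replicate 4. In YQFM against MI it was 0 as reported, 28 without MI replicate 4 and 23 without YQFM replicate 1, the other array of slide 2. Same-numbered arrays did not deviate together, with correlations from -0.636 to 0.323 over 12 pairs, 4 of them above 0.1, and 4 of 12 arrays closest to their own number. With the replicate number as a block, 0 members were called in each comparison and 10 miRNAs in MI against Sham, and miR-181c-5p had a log2 ratio of -0.44 with an adjusted p of 0.0705 in limma. The dim signal of miR-181c-5p limits what can be shown, since with total gene signal it lay at the floor on 2 MI arrays, and with all spots of a probe required above background it was detected on 3 Sham, 2 MI and 4 YQFM arrays.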
